A study of Homo sapiens with 6 samples.

Results

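The comparison described here set the m6A peaks of U-251 MG cells carrying a short hairpin RNA against METTL3 (shMETTL3) beside those of cells carrying a control hairpin (shNC). U-251 MG is an established human glioblastoma line. m6A was mapped by methylated RNA immunoprecipitation, in which RNA broken into short fragments is pulled down with an m6A antibody and sequenced beside the input RNA. The members were all peaks of the shMETTL3 and control lists, 14639 of the 17375 peaks in the 3 peak lists of the series, of which 9206 were control peaks and 5433 shMETTL3 peaks. The remaining list, of cells with a hairpin against TRA2A, held 2736 peaks. Each condition had 1 immunoprecipitated and 1 input library of total RNA. There are thus no replicates, no test between conditions was made, and every value is a description of these libraries. The sources used here give neither the hairpin sequences, nor whether the cells were a pool or a clone, nor the time after transduction.

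N6-methyladenosine is the most common internal modification of messenger RNA. It is laid down in the nucleus by METTL3, the catalytic subunit, which works as a pair with METTL14 and is directed to transcripts by a larger complex of WTAP, VIRMA, ZC3H13, CBLL1 (HAKAI), RBM15 and RBM15B. METTL16 is a separate methyltransferase with few substrates, among them the transcript of MAT2A, which makes the methyl donor S-adenosylmethionine. Demethylases such as FTO and ALKBH5 remove the mark, and readers of the YTH family bind it. The mark is known to lie mostly in long exons and around the stop codon and 3′ UTR. A related mark sits on the first transcribed base when that base is adenosine, is made by PCIF1, and is also bound by m6A antibodies.

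The control peaks fell in 4365 genes and the shMETTL3 peaks in 3370. A gene is a RefSeq gene body (GRCh38.p14) that the peak touched on the same strand, or on either strand where that of the gene was not known. Genes of unknown strand held 1445 of the 8853 control and 911 of the 5240 shMETTL3 peaks given a gene. The score that accompanies each peak has no stated scale. It started at 6.04 in the control list and at 3.33 in the shMETTL3 list, so scores and ranks order peaks within a list and are not compared between lists. The sources used here do not give the read depth. A peak list holds no transcript levels, so it does not show how far METTL3 was reduced, and METTL3 itself had no peak in any of the lists. Of 8 astrocyte and glioma markers, 4 had a control peak and 3 an shMETTL3 peak, with GFAP, S100B, VIM and OLIG2 at 0 peaks in both. Of 16 markers of neurons, oligodendrocytes, blood cells and endothelium, MAP2 alone had control peaks and none had an shMETTL3 peak.

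Control peaks were mostly not matched in the shMETTL3 list. A match is 1 or more bases in common on the same strand. Overlap and width were taken from the outer start and end of each peak. For a peak of more than 1 block they include the gaps between blocks, so a match there can lie in a gap. An shMETTL3 peak matched 1650 of the 9206 control peaks, 17.9% (17.1 to 18.7%, exact Clopper-Pearson 95% interval, as for all intervals here). Of the 5433 shMETTL3 peaks, 1775 lay on a control peak, 32.7% (31.4 to 33.9%). This gives 3 classes: shared peaks, control-only peaks (7556) and shMETTL3-only peaks (3658). By gene, 2028 genes had peaks in both lists, which is 46.5% of the control peak genes and 60.2% of the shMETTL3 peak genes. A control peak was itself overlapped in 1205 control peak genes, 27.6%. Between lists trimmed to the same number of best-scoring peaks, 26.7% of control and 29.2% of shMETTL3 peaks were matched, and the gene shares turned around, to 55.1% of control and 47.3% of shMETTL3 peak genes. The intervals cover counting error alone, and peaks of the same gene are not independent of each other.

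Where a control peak ranked within its own list went with whether it was matched. Of the peaks in the highest decile of control scores, 54.1% (50.8 to 57.4%) lay on an shMETTL3 peak, against 2.06% (1.25 to 3.20%) of the lowest decile, with every decile above the one below it. Wide peaks were matched more often than narrow ones. Of control peaks 50 nt wide 6.74% were matched, and of those over 250 nt wide 29.4%. A match needs only 1 base in common, which a wide peak can meet more easily than a narrow one. With midpoints within 100 nt as the rule, the shares were 7.39% and 18.5%, so the gap was smaller but remained. Width and score went together in the list, with a median width of 50 nt in the lowest and 450 nt in the highest decile. Within the better-scoring 50% of the list the share still ran from 15.6% at 50 nt to 37.0% over 250 nt. Within the lower-scoring 50% it lay between 4.85 and 8.51% in all width classes. Read from the other side, the share of shMETTL3 peaks that matched a control peak was 42.9% in the highest decile of their own scores and 17.8% in the lowest. Exact scores were tied for 31.3% of control and 39.6% of shMETTL3 peaks, and peaks tied on a score can fall on either side of a decile's limit.

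**Figure D1:**
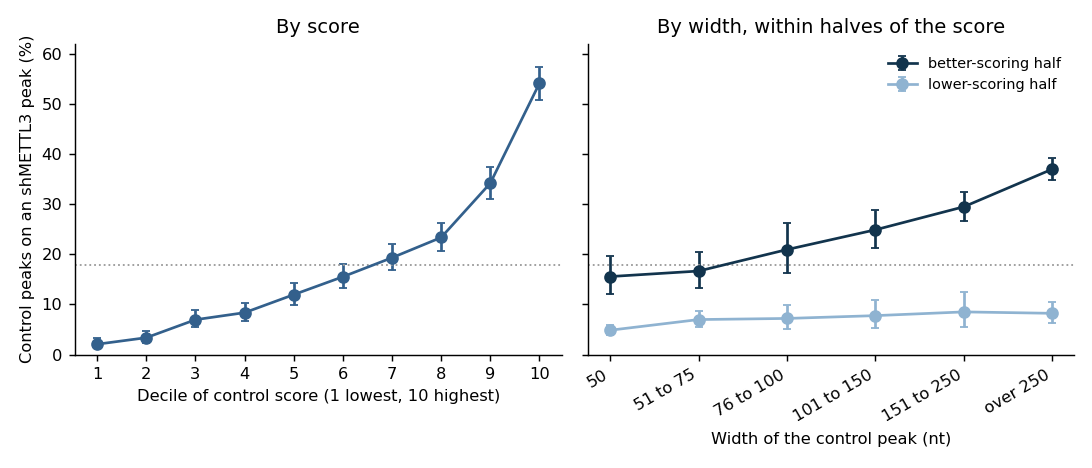
Share of control peaks that lay on an shMETTL3 peak (vertical axis, %) by decile of the control score (left) and by width in nt within the better-scoring and lower-scoring 50% of the control list (right). Bars are exact 95% intervals and the dotted line marks the 17.9% of all control peaks. The share climbed from 2.06% in the lowest decile to 54.1% in the highest, and in the better-scoring 50% from 15.6% at 50 nt to 37.0% over 250 nt.

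Where peaks of both lists overlapped, the shMETTL3 peak was mostly the narrower one. Among peaks of 1 block whose width is a multiple of 25 nt and at most 1000 nt (called regular here, 7356 control and 3769 shMETTL3 peaks), 1351 overlapping pairs were found. The median width in these pairs was 200 nt for the control and 100 nt for the shMETTL3 peak. Over all regular peaks the medians lay closer together, at 100 nt in the control and 75 nt in the shMETTL3 list. Wide control peaks were matched more often, as given above, so the pairs do not stand for all peaks. The shMETTL3 peak was narrower in 934 pairs (69.1%), wider in 278 and equal in 139, and it lay wholly inside the control peak in 835 (61.8%). Counting all widths, 166 control peaks carried 2 or more shMETTL3 peaks, with 5 as the most on 1 control peak, and 133 pairs had identical coordinates in both lists.

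The matched regular control peaks with the highest scores lay in 15 genes. Wider and irregular peaks were left out of this choice, so that EIF5B and IFIT5, for example, whose matched control peaks are over 1000 nt wide and rank 4 and 10, are not among them. HMGN5, a nucleosome-binding protein, had a control peak of 525 nt at X:81114624-81115148 that ranked 5 of 9206 (score 198.8). It was overlapped by an shMETTL3 peak of 500 nt that ranked 2764 of 5433, and next to it the shMETTL3 list had a peak of 1048 nt that ranked 2 and touched no control peak. ZNF146, a zinc finger protein, had a control peak of 875 nt at 19:36237279-36238153 (rank 17), on which an shMETTL3 peak of 50 nt lay. PPIG, a nuclear cyclophilin linked to splicing, had one of 375 nt at 2:169636618-169636992 (rank 24), overlapped by an shMETTL3 peak that ranked 34. The splicing genes PRPF38B and NSRP1 had control peaks of 525 and 675 nt (ranks 25 and 32) matched by shMETTL3 peaks of 625 and 700 nt. CPM, the membrane carboxypeptidase M, had a 75 nt peak with identical coordinates in both lists (12:68842878-68842952, rank 55 in the control and 104 in the shMETTL3 list). The other genes of this group, picked by control score, were MAP3K4, OGFRL1, PRP4K, N4BP2L2, SAMD9L, FILIP1L, PARP14, SAMD9 and SLFN12. In all 9 of them an shMETTL3 peak on the control peak was narrower than that peak, between 50 and 400 nt against 350 to 1000 nt.

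Strong control peaks also lay in genes without any shMETTL3 peak. The 15 genes given here had the best-scoring regular peaks among such genes with 2 or more control peaks, which leaves out ITGA1, with 1 control peak at rank 40. MET, the receptor of hepatocyte growth factor, had 3 control peaks. The strongest was 550 nt wide, lay at 7:116797704-116798253 with its midpoint 399.5 nt before the 3′ end of the gene body, and ranked 84. The other 2 lay at 7:116699264-116699413 and 7:116699689-116699963. DIO2, the deiodinase that activates thyroid hormone, had 8 control peaks, the best of them at 14:80202301-80202800 (rank 60). XAF1, an interferon-induced antagonist of the apoptosis inhibitor XIAP, had 6, the best at 17:6774208-6774582 (rank 227). RBBP8 (CtIP), which starts the resection of DNA breaks, had 2, the best at rank 242, and DDX20, a helicase of the SMN complex, had 2, the best at rank 278. The further genes of this group were ZKSCAN7-AS1 (a long non-coding RNA, rank 51), TMCC1, PPP4R2, TCIM, RNF6, TICRR, TASOR2, RIOK2, UBXN4 and TPT1, with 2 to 10 control peaks each. They were chosen for having no shMETTL3 peak, which is therefore no finding about them.

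Among the genes that had shMETTL3 but no control peaks, 15 were chosen by the score of their regular peaks, which keeps wide peaks out. Of the 3658 shMETTL3-only peaks 2298 were regular, and the upper quartile of width over all of them was 1248 nt. The chosen peaks were 50 to 250 nt wide, 8 of them 50 nt. TAF15, an RNA-binding protein of the FET family, had the peak ranked 3 of 5433, 50 nt wide at 17:35820271-35820320 (score 99.6), and 2 more at ranks 2755 and 2031. TXNDC5, a disulfide isomerase of the endoplasmic reticulum, had one of 50 nt at rank 15 (6:7882842-7882891). RRBP1, the ribosome-binding protein of the same membrane, had 4 peaks, the best at rank 36. NEAT1, the long non-coding RNA that scaffolds paraspeckles, had 3 peaks of 50 nt each, at 11:65424774-65424823, 11:65425949-65425998 and 11:65426074-65426123. CD47, the surface ligand that restrains phagocytosis, had a peak of 75 nt at 3:108090874-108090948, 0.250% of the way along the gene body. The other genes were TSR2, ZMAT2, PRKCH, PSKH1, SKAP2, NEMP2, LINC01234, TRIM41, INPP5F and PROX1, with 1 or 2 peaks each.

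Along the gene body all 3 classes were most dense at the 3′ end, and the shMETTL3-only peaks were spread further toward the 5′ end. Of regular control-only peaks 52.0% had their midpoint in the last 20% of the gene body and 10.1% in the first. Of regular shared control peaks the figures were 52.4% and 9.70%. Of regular shMETTL3-only peaks 44.2% lay in the last 20% and 15.6% in the first. Most of the excess sat in the first 5% of the gene body, which held 8.53% of the shMETTL3-only, 4.06% of the control-only and 3.23% of the shared control peaks. In the last 5% the order was turned, with 19.8% of the shMETTL3-only and 25% of the control-only peaks. The matched share of control peaks ran from 17.3 to 19.2% over 5 equal parts of the gene body. It was lower in the last 1000 nt, at 14.5% (12.2 to 17.0%) of 865. These places are along the gene body with its introns, since exon and UTR annotation was not used here.

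**Figure D2:**
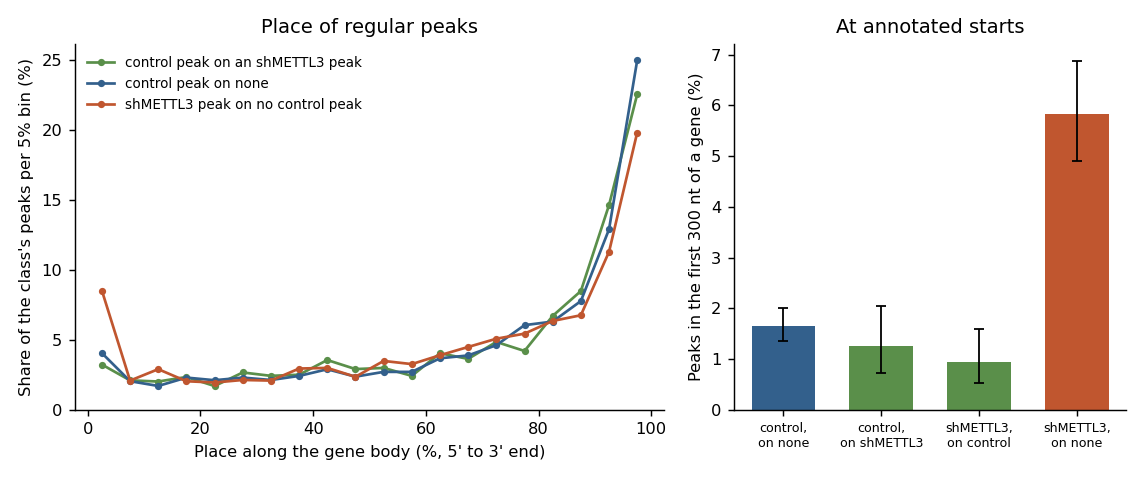
Left, place of regular peaks along the gene body (horizontal axis, % from the 5′ to the 3′ end) as the share of each class per 5% bin (vertical axis, %). Right, share of regular peaks that touch the first 300 nt after an annotated gene start (vertical axis, %), with exact 95% intervals, for control and shMETTL3 peaks that do or do not lie on a peak of the other list. The shMETTL3-only peaks stood at 8.53% in the first bin and at 5.83% at starts, and the shared peaks of either list at 0.952 to 1.26% at starts.

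Peaks close to annotated gene starts were a larger share of the shMETTL3 than of the control list. Of 3769 regular shMETTL3 peaks, 148 touched the first 300 nt after a RefSeq gene start, 3.93% (3.33 to 4.60%), and of 7356 regular control peaks 117 did, 1.59% (1.32 to 1.90%). The shTRA2A list, which is set against the same control, had 63 of 1822, 3.46% (2.67 to 4.40%). Within the shMETTL3 list the peaks off the control peaks accounted for most of this. Of 2298 regular shMETTL3-only peaks 134 were near a start, 5.83% (4.91 to 6.87%), against 14 of 1471 shared ones, 0.952% (0.521 to 1.59%). They were more frequent in genes without a control peak (86 of 951 regular shMETTL3-only peaks, 9.04%) than in genes with one (48 of 1254, 3.83%). They were low in their own list, with a median score percentile of 31.1, and their median width was 75 nt. The 117 control peaks near a start were alike in this, with a median percentile of 32.9 in the control list and a median width of 75 nt. The best-scoring regular shMETTL3-only peaks near a start, in coding genes, were in CD47, TRIM41 (an E3 ubiquitin ligase, 5:181223573-181223672), DNAJB4 (an HSP40 cochaperone, 1:78005190-78005239), ZNF581 and the homeobox gene SIX5. Next came the ephrin receptor EPHA3, CCDC34 and FKBP5 (a cochaperone of the glucocorticoid receptor, 6:35688862-35688911).

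The sequences at such starts are shown because the first 5% of the gene body is the bin with the highest ratio of the shMETTL3-only to the control-only share. A gene can have several annotated starts, so a printed start need not lie in that bin. Each is 50 bases of the transcribed strand from RefSeq (GRCh38.p14), 20 before and 30 from the annotated start, with the annotated first base in capitals. Whether transcription began at that base in these cells was not tested. They belong to the coding genes whose best-scoring regular peak of each class touched the first 50 nt. Those at starts touched by shMETTL3-only peaks follow, with their place.
FKBP5 (6:35688886-35688935, minus strand): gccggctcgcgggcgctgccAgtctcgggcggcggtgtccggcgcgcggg
ZNF48 (16:30378292-30378341, plus strand): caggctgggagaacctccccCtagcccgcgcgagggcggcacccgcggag
AHDC1 (1:27604115-27604164, minus strand): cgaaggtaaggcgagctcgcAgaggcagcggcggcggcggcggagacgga
AURKB (17:8210196-8210245, minus strand): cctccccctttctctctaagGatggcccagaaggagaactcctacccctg
Those at starts touched by control-only peaks were the following. These 4 peaks lay further into the gene than the printed bases and share none with them.
MICOS10 (1:19596959-19597008, plus strand): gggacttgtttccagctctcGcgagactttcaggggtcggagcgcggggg
PGCKA1 (4:37584213-37584262, plus strand): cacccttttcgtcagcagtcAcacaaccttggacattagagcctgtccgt
ARHGAP12 (10:31908897-31908946, minus strand): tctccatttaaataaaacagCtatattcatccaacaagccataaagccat
EHBP1 (2:62706877-62706926, plus strand): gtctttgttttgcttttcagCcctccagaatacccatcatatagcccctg
Those at starts touched by shared control peaks were the 3 that follow. These 3 peaks covered all 50 printed bases, so they also held bases before the annotated start.
ZBED6 (1:203797503-203797552, plus strand): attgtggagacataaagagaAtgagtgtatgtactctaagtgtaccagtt
MEF2C (5:88823898-88823947, minus strand): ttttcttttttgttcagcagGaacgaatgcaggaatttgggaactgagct
DNHD1 (11:6497260-6497309, plus strand): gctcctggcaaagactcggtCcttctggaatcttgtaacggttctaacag

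The GC content of these 50 bases was 86, 78, 74 and 58% in the shMETTL3-only examples, 66, 52, 32 and 46% in the control-only examples, and 36, 40 and 50% in the shared ones. These are single examples of each class, and the values are those of the printed bases, not of the peaks. In the order printed, the shMETTL3-only peaks shared 26, 9, 20 and 36 of the 50 bases. Over all starts touched within their first 50 nt, the first base was adenosine in 20 of 49 touched by shMETTL3-only peaks (40.8%, 27 to 55.8%), 19 of 41 touched by control-only peaks (46.3%, 30.7 to 62.6%) and 2 of 6 touched by shared peaks, beside 44.4% of 35116 annotated starts. The letters GGAC, the core of the m6A consensus, were searched on the transcribed strand alone. They occurred in the first 50 nt of 26.5% (14.9 to 41.1%) of the starts touched by shMETTL3-only peaks, 26.8% (14.2 to 42.9%) of those touched by control-only peaks and 1 of 6 touched by shared peaks, beside 18.9% of all annotated starts. The intervals of both larger classes held the value of all starts for the first base and for the motif.

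More genes had fewer peaks in the shMETTL3 list than had more. Of the 2028 genes with peaks in both lists, 918 had fewer shMETTL3 than control peaks, 777 as many and 333 more. The control list is the longer one, and these numbers are not scaled for it. Of 2337 genes with control peaks alone, 1515 (64.8%) had 1 peak and 60 had 5 or more. Of 1342 genes with shMETTL3 peaks alone, 1080 (80.5%) had 1 and 52 had 3 or more. The more control peaks a gene had, the more often it had any shMETTL3 peak, from 35.4% (33.5 to 37.4%) of genes with 1 to 79.9% (74.8 to 84.3%) with 5 to 9 and 93.3% (77.9 to 99.2%) of the 30 genes with 10 or more.

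The 8 largest reductions were in genes with 13 to 26 control peaks. VCAN, the matrix proteoglycan versican, had 24 control and 4 shMETTL3 peaks. None of the 12 control peaks between 5:83490375 and 5:83522158 was matched. All 4 shMETTL3 peaks lay on control peaks further along the gene, the best of them (5:83539813-83540112) on the strongest control peak (5:83539338-83540262, rank 79). DST, a cytoskeletal linker, had 25 and 8, and CENPF, a kinetochore protein, had 26 and 12, of which 9 control peaks were matched. GOLGB1, a Golgi tethering protein, had 16 and 3, and AKAP9, an anchor of protein kinase A at the centrosome and Golgi, had 14 and 1, with no overlap. FAT1, an atypical cadherin, had 21 and 9, MACF1, which links actin and microtubules, had 19 and 7, and ZNF608 had 13 and 1.

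Of the genes with the most control peaks and no shMETTL3 peak, TASOR2 and TLR4 had 10 each. TLR4 is the receptor of bacterial lipopolysaccharide, and its 10 control peaks ran from 9:117712442 to 9:117716541 with ranks from 725 to 7779. CLMP, a junction adhesion protein, had 9, of which 1 lay on the plus strand and 8 on the minus strand. DIO2, PCNX4, ALMS1 (the ciliary protein of Alström syndrome) and SLFN5 (an interferon-induced schlafen protein) had 8 each. ARID5B, LUZP1 and ZEB1, a transcription factor that drives mesenchymal transition, had 7 each.

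The 8 largest increases were smaller, by 5 to 7 peaks. MTCL1, a microtubule crosslinker, had 2 control and 9 shMETTL3 peaks, and both control peaks were overlapped. ARSJ, an arylsulfatase, had 4 and 9. TNKS1BP1, which binds tankyrase, and MYH10, a non-muscle myosin heavy chain, had 1 and 7 each, with no overlap. HNRNPH3, an hnRNP splicing regulator, had 1 and 6. Its control peak of 50 nt (10:68338494-68338543) was overlapped by an shMETTL3 peak of 100 nt, and the best of the other 5 (10:68341268-68341342) ranked 64 of 5433. SCAF1, CHD3 and KLHDC4 had 1 and 6 each. Among genes with no control peak, CEP250, which holds centrioles together, and PINK1, the kinase of mitophagy, had 5 shMETTL3 peaks each. The strand of PINK1 is not in the sequence table, and 3 of its 5 peaks lay on the minus and 2 on the plus strand, so reads of the gene and of an antisense transcript cannot be told apart here. UTRN, RRBP1, CENPB, LSP1, AHDC1, LARP6, SPEG and the read-through locus STAG3L5P-PVRIG2P-PILRB had 4 each.

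**Figure D3:**
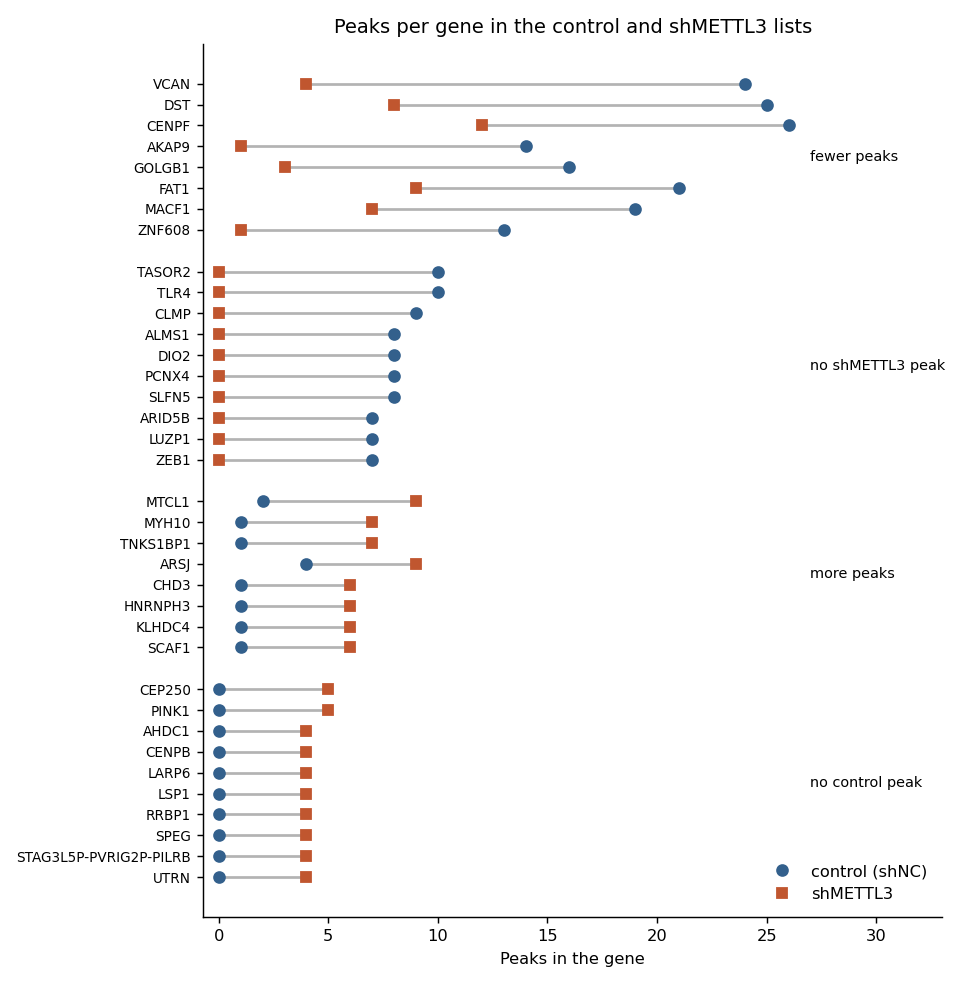
Number of peaks per gene (horizontal axis) in the control list (circles) and the shMETTL3 list (squares) for the 8 genes with the largest decrease, the 10 with most control peaks and no shMETTL3 peak, the 8 with the largest increase and the 10 with most shMETTL3 peaks and no control peak. VCAN went from 24 peaks to 4 and MTCL1 from 2 to 9. The genes were chosen by these numbers.

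Genes with peaks in both lists did not always have them at the same place. In 828 of the 2028 such genes (40.8%) no pair overlapped. The median of the smallest distance between a control and an shMETTL3 peak was then 1462.5 nt, and it was at most 1000 nt in 375 genes (45.3%). In 512 of these genes (61.8%) the shMETTL3 peaks lay nearer the 5′ end by their median place. Over all control-only peaks 4.86% came within 100 nt of an shMETTL3 peak and 20.8% within 1000 nt, and 47.0% lay in a gene that had an shMETTL3 peak elsewhere.

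The maps of 5 genes show these arrangements, of which TUG1, NES and KMT2B were chosen after their values were seen. SAMD9, an interferon-induced antiviral factor, had 12 control and 6 shMETTL3 peaks, and 4 control peaks were overlapped, by 5 shMETTL3 peaks. In TUG1, a long non-coding RNA, all 4 shMETTL3 peaks lay on 4 of 12 control peaks. In NES, the neural stem cell filament protein nestin, 3 control and 5 shMETTL3 peaks lay next to each other with no overlap. In KMT2B, a histone H3 methyltransferase, a single control peak of 50 nt (19:35720002-35720051) was followed by 4 shMETTL3 peaks, the nearest at 19:35720177-35720251.

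**Figure D4:**
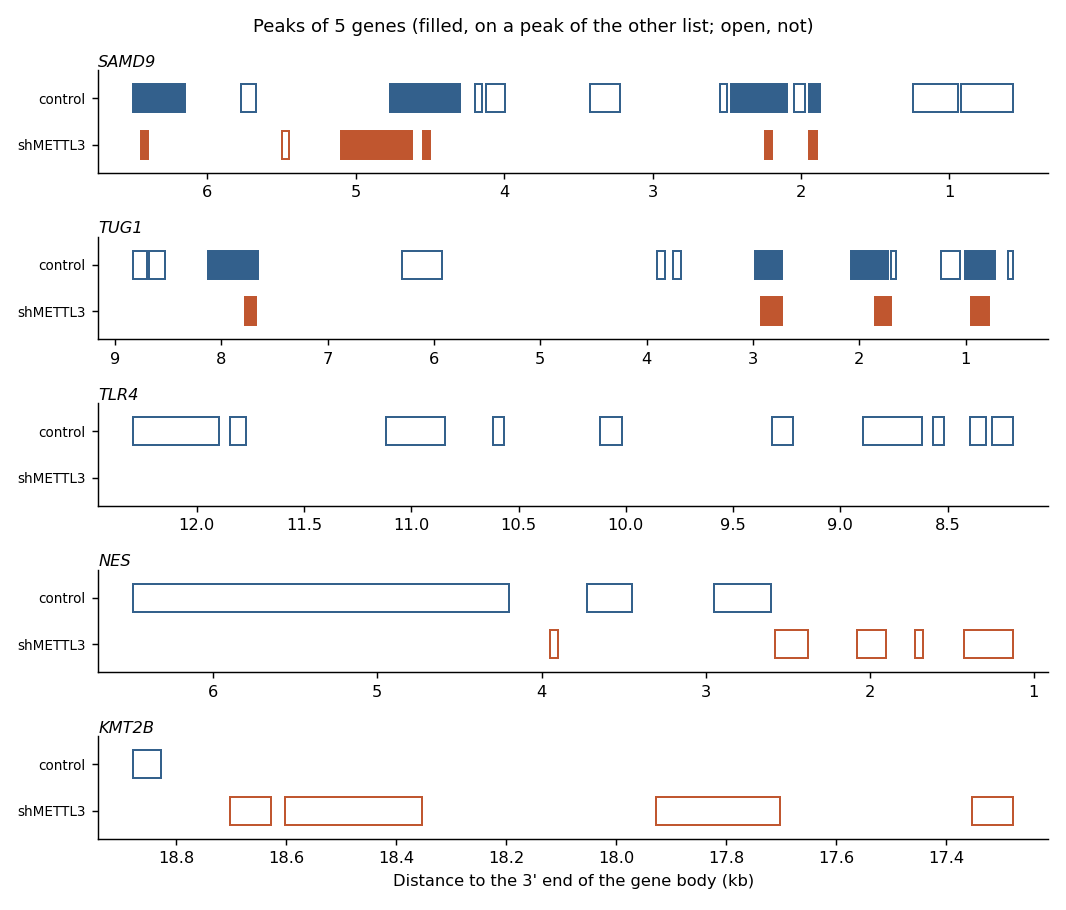
Peaks of SAMD9, TUG1, TLR4, NES and KMT2B, drawn to scale by distance to the 3′ end of the gene body (horizontal axis, kb, a scale of its own for each gene). Control peaks are in the upper row and shMETTL3 peaks in the lower row of each panel, filled where they share a base with a peak of the other list and open where they do not. All 4 shMETTL3 peaks of TUG1 are filled, all 8 peaks of NES are open, and TLR4 has 10 control peaks and no shMETTL3 peak.

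Transcripts of the writer complex itself carried peaks in both lists. ZC3H13, which anchors the complex in the nucleus, had 9 control and 13 shMETTL3 peaks, and 4 of the control peaks were overlapped. Several of its peaks were wide, up to 9018 nt from outer start to outer end. VIRMA, which steers methylation toward the 3′ UTR, had 7 and 5, and 5 control peaks were overlapped. CBLL1 had 1 and 2, and its control peak (7:107758264-107758388) was overlapped. RBM15B had 3 and 3, RBM15 3 and 1, and METTL14 1 and 1, with no overlap in any of these 3 genes. WTAP had 4 control peaks, the best at 6:159748270-159748544 (rank 1120), and no shMETTL3 peak. METTL16 had 2 control peaks and no shMETTL3 peak, and MAT2A had 2 shMETTL3 peaks, at 2:85543111-85543185 and 2:85544897-85544946, and no control peak. Over the list of writers and other RNA methyltransferases, 6 of the 13 genes with a control peak had an shMETTL3 peak, 46.2% (19.2 to 74.9%), beside 46.5% of all control peak genes. CMTR2, a cap methyltransferase, with 4 control peaks, and PCIF1 with 2 were among the 7 without one.

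Of the demethylases and readers, 9 of 15 control peak genes had an shMETTL3 peak. PRRC2C, a reader candidate and translation factor, had 16 control and 10 shMETTL3 peaks. YTHDC1, the nuclear reader, had 5 and 1 with no overlap, and YTHDF2, the reader that brings transcripts to decay, had 4 and 1, the latter on a control peak. FTO had 1 control peak (16:53826172-53826446, rank 414) and no shMETTL3 peak, as did RBMX with 2. None of the 5 control peak genes of the S-adenosylmethionine and methionine cycle had an shMETTL3 peak (upper limit 52.2%). That interval holds the 46.5% of all control peak genes. The 5 were MTR and MTRR, which remake methionine, with 3 control peaks each, the amino acid transporter SLC7A5 with 3, and AHCY and DNMT3A with 1 each. All 4 genes of that list with an shMETTL3 peak, MAT2A, NNMT and SHMT1 among them, had no control peak (100%, 39.76 to 100%). Of all shMETTL3 peak genes 39.82% had no control peak.

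Of the other gene lists most lay above the 46.5% of all control peak genes that also had an shMETTL3 peak, though some lay below. Over all listed genes the share was 52.5%. These lists were drawn up with earlier results of the same data known, and the counts below are descriptions. Most lists also had more control peaks per gene than the mean of 2.03 over all control peak genes. The immediate early, energy metabolism, protocadherin and histone gene lists had fewer. The share rose with the number of control peaks, as given above, and the list shares are not adjusted for it. Shares at equal numbers of control peaks were computed for the ZNF genes alone. The highest shares were those of the centrosomal CEP genes (16 of 20, 80.0%), the enzymes of histone lysine methylation (25 of 32, 78.1%) and the chromatin remodellers and acetyltransferases (32 of 41, 78.0%). The genes of the last 2 lists had more control peaks than most, with a mean of 3.31 and 3.83 per gene beside 2.03 over all control peak genes, while the CEP genes had 2.15. The shares of these lists moved with the rule. By genes with an overlapped control peak they were 30, 40.6 and 46.3%, beside 27.6% of all control peak genes. With regular peaks alone the CEP genes stood at 53.3% and the remodellers at 60.0%, beside 41.1% of all, and in the better-scoring 50% of both lists the histone methylation enzymes stood at 52.4%, beside 40.6% of all. NSD1 had 7 control and 5 shMETTL3 peaks and KDM5A 3 and 1, and CHD8 had 8 and 2 and CHD9 7 and 2, all with matched control peaks. KDM3A and SUZ12 with 1 control peak each, SMARCC1 with 5 and ARID2 with 2 had no shMETTL3 peak. CEP170 had 7 and 1 with no overlap, CEP55 had 1 and 1 that overlapped, and CEP57 and CEP89 had control peaks alone.

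DNA replication and repair genes stood at 25 of 34 (73.5%), and 11 more had shMETTL3 peaks alone. These are 30.6% (16.3 to 48.1%) of the 36 with an shMETTL3 peak, beside 39.8% of all shMETTL3 peak genes, and among them were BRCA1 with 3 and BARD1 with 2, both chosen after their values were seen. MDM2 had 4 control and 1 shMETTL3 peak, and NBN and ERCC4 had 2 control peaks each and no shMETTL3 peak. Of cell cycle genes 14 of 24 were found. MKI67, the proliferation antigen, had 17 and 6, with 5 control peaks overlapped, and CKAP2 had 2 and 3. PLK4, which starts centriole duplication, had 3 control peaks and CENPE 2, and neither had an shMETTL3 peak. Of RNA decay genes 21 of 32 (65.6%) were found, including UPF2 with 3 and 5 peaks and TUT7 with 4 and 2, and DCP1A and EXOSC2 with 1 control peak each were not.

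Of the glioma, neural and mesenchymal regulators 26 of 37 (70.3%) had an shMETTL3 peak. None of the 26 listed genes with an shMETTL3 peak lacked a control peak (upper limit 13.2%), beside 39.8% of all shMETTL3 peak genes. This list, too, was drawn up with earlier results known. MEIS2, a homeobox factor, had 4 and 6 peaks. Its shMETTL3 peak at 15:36891454-36891628 ranked 11 of 5433 and lay on a control peak that ranked 1064 of 9206. BMPR2, a receptor of bone morphogenetic proteins, had 3 and 1. MET and ZEB1 were not found. Receptor kinase, RAS and PI3K genes stood at 16 of 34 (47.1%). RICTOR had 1 and 1 that overlapped, JUN had 1 and 3, and FOXO1 had 4 control peaks alone. EGFR, named after its values were seen, had 6 control peaks between 7:55205264 and 7:55206413 and 1 shMETTL3 peak of 75 nt (7:55206314-55206388), which lay on the last of them. TGF-beta, WNT and Hippo genes stood at 14 of 32 (43.8%), with SKIL and FZD6 at 5 and 2 peaks each and CCN2 and SKI, with 1 and 3 control peaks, not found.

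Of interferon-stimulated genes 21 of 42 (50%) had an shMETTL3 peak, and 9 of the 30 with an shMETTL3 peak (30%, 14.7 to 49.4%) had no control peak. SAMD9L, next to SAMD9 on chromosome 7, had 9 control and 6 shMETTL3 peaks, and all 6 lay on control peaks. IFIT5 had 1 control peak of 1175 nt (10:89417294-89418468, rank 10), on which both of its shMETTL3 peaks lay, at opposite ends of it. IFIT1 had 2 and 3 with no overlap, IFIT2 had 5 and 2 with 1 control peak overlapped, and IFIT3 had none and 1. XAF1 with 6 control peaks and TNFSF10, the death ligand TRAIL, with 3 had no shMETTL3 peak. Immediate early and other labile transcription factors stood at 14 of 30 (46.7%). SOCS2 had 1 and 1 peaks and TOB1 2 and 2, all overlapping, and ID2 with 1 control peak was not found.

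Of extracellular matrix, integrin and adhesion genes 17 of 28 (60.7%) were found. Of the 27 with an shMETTL3 peak 10 (37.0%, 19.4 to 57.6%) had no control peak. The intervals of the repair, interferon and matrix lists thus held the 39.8% of all shMETTL3 peak genes. ITGB8 had 1 and 1 with no overlap, and ITGA1, with a control peak that scored 109, and COL8A1 with 5 control peaks were not found. Endocytosis, Golgi and recycling genes stood at 20 of 32, with GOLIM4 at 2 and 2 peaks, USP8 at 3 and 1, and ITSN2 and RAB8B, with 2 control peaks each, not found. Ubiquitin ligases and deubiquitinases stood at 28 of 44 (63.6%), with USP47 at 5 and 1, USP1 at 2 and 2, and RNF111 with 4 and KLHL11 with 3 control peaks not found. Splicing genes stood at 15 of 26 (57.7%). SRPK2, a kinase of SR proteins, had 2 and 2 peaks, both control peaks overlapped, while its relative SRPK1 with 3 and SRRM1 with 4 control peaks were not found. Of ribosomal protein and translation factor genes 10 of 16 were found. EIF5B, which joins the ribosomal subunits, had 3 and 5 peaks and EIF3A 2 and 1, and EIF3J with 3 and EIF4G1 with 2 control peaks were not found. Of energy metabolism genes 3 of 5 were found, with SLC2A1 and OGDH at 1 and 1 and HK2 and PFKFB3 at 1 control peak alone.

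The lowest share of a list with more than 20 control peak genes was that of the ZNF zinc finger genes. Of 244 with a control peak 87 had an shMETTL3 peak, 35.7% (29.6 to 42.0%), although they had more control peaks per gene than the other genes, 2.45 against 2.003 on average. Their control peaks ranked lower, with a median score percentile of 35.1 against 51.1. The share was lower at each number of control peaks. It was 25% (16.6 to 35.1%) against 35.8% of other genes with 1 control peak, 32.3% against 48.3% with 2, 40.4% against 68.7% with 3 to 4, and 66.7% (47.2 to 82.7%) against 82.6% with 5 or more. Between the better-scoring 50% of each list the ZNF share was 35.6% (27 to 44.9%) of 118 genes, an interval that holds the 40.6% of all. By genes with an overlapped control peak the ZNF share was 19.3%, beside 27.6% of all. ZNF638 had 5 control and 6 shMETTL3 peaks, and ZNF675 with 1 and ZNF644 with 4 control peaks had none. The ZNF genes made up 6.72% of genes with control peaks alone, 4.29% of genes in both lists and 1.94% of genes with shMETTL3 peaks alone. Of PCDH protocadherins 5 of 17 were found, including PCDH10 with 3 and 1 peaks and PCDHB2 with 2 and 1, both without overlap. PCDH17 and PCDH7, with 3 control peaks each, were not found. Near-identical members of both families can share reads, so their assignment is uncertain. Of long non-coding RNAs 6 of 11 were found, with FGD5-AS1 at 2 and 1 and NORAD at 4 and 2 peaks, and FTX with 3 and MEG3 with 2 control peaks were not found. The histone gene H2AX, with 3 control peaks, was not found.

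**Figure D5:**
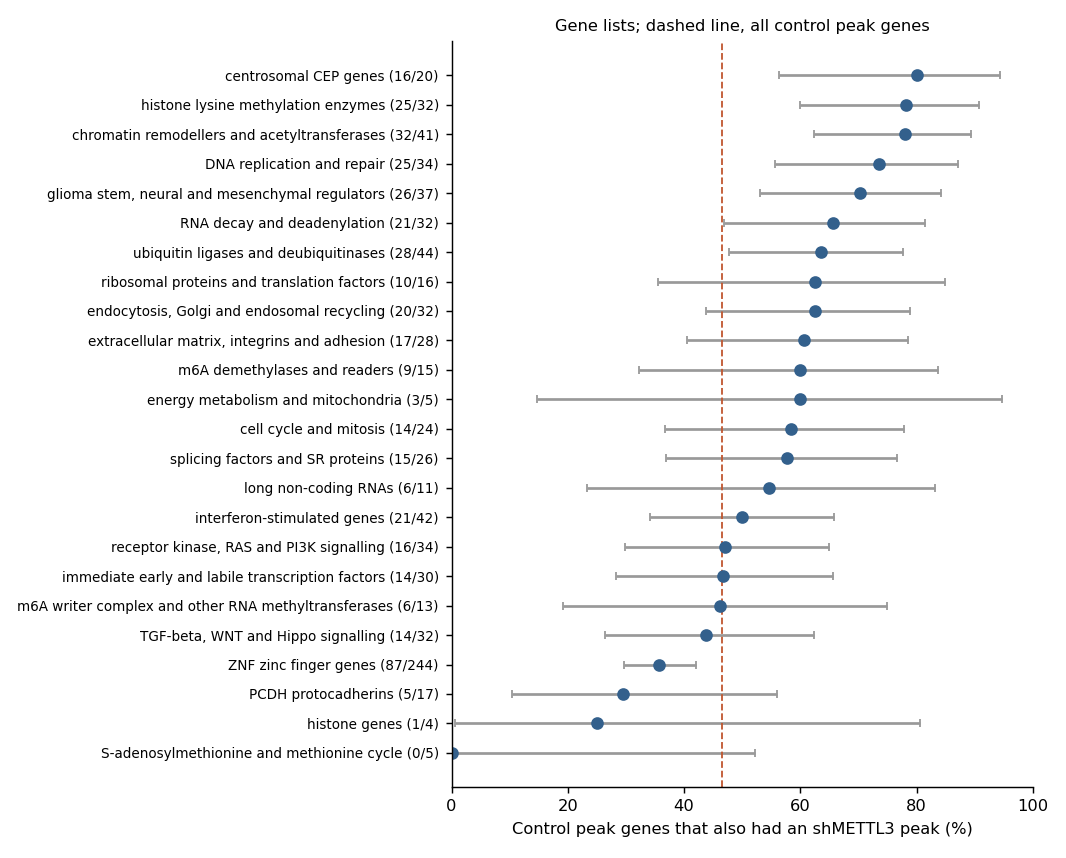
Share of control peak genes that also had an shMETTL3 peak (horizontal axis, %) for 24 gene lists, with exact 95% intervals and, in brackets, the genes found over those with a control peak. The dashed line marks all 4365 control peak genes (46.5%). The CEP, histone lysine methylation and chromatin remodeller lists lie at 78.0 to 80.0%, and the ZNF genes at 35.7%.

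Genes with peaks in both lists were longer than the rest, with a median gene body of 50.8 kb against 34.4 kb for genes with control peaks alone and 32.2 kb for genes with shMETTL3 peaks alone. The share of genes on chromosome 19 was 5.92% in both lists, 7.06% among genes with control peaks alone and 9.91% (8.36 to 11.6%) among genes with shMETTL3 peaks alone. GC content of the 300 bases around the start had medians of 65.3, 64.7 and 66.3% over the 82 to 83% of these genes that have a start sequence. Long non-coding RNAs made up 2.91% of the genes in both lists, and 7.92 and 7.97% of the genes with peaks in the control or the shMETTL3 list alone.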

How the data were processed

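Each of shNC, shMETTL3 and shTRA2A had 1 immunoprecipitated and 1 input library (6 in all) and 1 deposited peak list. The submitters' processing notes list HISAT2 2.2.1, featureCounts 2.0.1, SAMtools and the build GRCh38. The sources used here do not give the peak caller, its settings or the depth. Column 5 of the deposited lists is a score of unstated scale, used to rank peaks within a list. A further list equals that of shTRA2A and was not used.

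Overlap on the same strand was computed in Python 3.11.15 (scipy 1.17.1, pandas 2.3.3, numpy 2.4.6). It was tested on simulated data and against bedtools 2.31.1, with 0 of 9206 control and 0 of 5433 shMETTL3 peaks differing. Coordinates count from 1 on GRCh38.

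A peak was given the coding gene (RefSeq, GRCh38.p14) that it touched on its strand, otherwise a long non-coding gene, and of several the shortest that holds the whole peak. The strand was known for 15842 of 20046 coding and 11462 of 18303 long non-coding genes, and other genes accepted peaks of either strand. Of 180 genes examined singly, 28 had no known strand, and 3 of these (PINK1, CLMP and FZD6) had peaks on both strands. Starts and their sequences came from a RefSeq table of 35116 starts. Clopper-Pearson intervals treat peaks as independent.

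The members, the regular-peak rule and the 25 gene lists were chosen with earlier results of these data known. One list, markers of other brain and blood cells, had no gene with a peak in either list. Named genes are the writer complex, 15 genes of each class by the score of their regular peaks (for genes with control peaks alone, those with 2 or more), those with most peaks, most matches or the largest change in number, and up to 4 per gene list, 2 found and 2 not found, by control score. EGFR, IFIT1, IFIT2, IFIT3, YTHDF2, PCIF1 and the methionine cycle genes beyond MTR and MTRR were named after their values were seen. Alternatives for overlap, score, width, strand and gene assignment were run.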

Additional observations from a re-analysis of the deposited data

How the results depend on the processing

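Of 39 alternatives to the main shares, 9 stayed within the interval of the main value and 30 moved out of it, all of them without a test. The share of control peaks matched was 17.9% by the main rule. It was 10.9% when at least 50% of the peak had to be covered, 14.5% with midpoints within 100 nt, 19.03% between the better-scoring 50% of each list, 26.7% between lists of the same number of best-scoring peaks, 16.4% for regular peaks and 19.6% after merging peaks within 100 nt. In the same order, without merging, the share of shMETTL3 peaks matched was 29.2, 25.1, 34.1, 29.2 and 34.7% beside 32.7%. The share of control peak genes with an shMETTL3 peak (46.5%) was 48.1% where peaks touched 1 coding gene alone, 40.6% in the better-scoring 50%, 55.1% in lists of the same number and 41.1% for regular peaks. The share of shMETTL3 peak genes with a control peak (60.2%) was 52.7% in the better-scoring 50%, 47.3% in lists of the same number and 62.5% for regular peaks. With lists of the same number of peaks the order of the 2 gene shares therefore turned around. Of control peaks in the last 20% of the gene (18.2%), 16.7% were matched among regular peaks and 14.8% by midpoints. In the highest quintile of scores (44.2%) the midpoint rule gave 31.0%, and in genes with 1 control peak (15.7%) regular peaks gave 13.8% and midpoints 13.1%. At a width of 50 nt (6.74%) regular peaks gave 5.76% and midpoints 7.39%. Over 250 nt (29.4%), a class not counted among the 39, regular peaks gave 45.3% of 891 and midpoints 18.5%. Over all listed genes (52.5%) the share was 30.1% for an overlapped control peak, 45.6% in the better-scoring 50% and 46.8% for regular peaks. Near starts, the first 100 nt held 2.28% of shMETTL3 and 0.843% of control regular peaks, and with peaks of any width the first 300 nt held 5.45 and 2.49%, so the shMETTL3 share was the higher one in each case. Ignoring the strand of the gene, an alternative chosen after seeing the data like the 2 for starts, left the gene shares at 47.3 and 60.6%. Counting overlapped control peaks lowered 22 of 24 gene lists, 14 of them beyond their interval. That rule and the 50% coverage rule are stricter forms of the main rules, so their lower shares were fixed in advance. The exception is 5 genes whose overlapping shMETTL3 peak was assigned elsewhere. The cause of the other movements was not tested. No paired analysis was possible because each condition has 1 library pair and the result comes from no test. With no depth given, no limit of detection could be set for a peak that is absent.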
